A study of Homo sapiens with 4 samples.

Results

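The 9 genes described here include GCLC, GCLM, GSR, TXN, TXNRD1, SRXN1 and PRDX1, which encode enzymes and carriers of glutathione and thioredoxin redox control. Listed with them are NQO1, which encodes a quinone reductase, and OSGIN1, which encodes a growth inhibitor. All 9 were chosen by symbol, with earlier results of these data known, and were found among the 16834 genes of the expression table. The RNA came from cells labelled MIA PaCa-2, an established line of human pancreatic ductal adenocarcinoma. All cultures are labelled wild type, and 1 of them served as the control, whose vehicle the labels do not state. The other cultures received 1 µM neobractatin (NBT, a plant compound from the genus Garcinia), 5 µM trametinib (an inhibitor of the kinases MEK1 and MEK2), or both drugs at these doses, and every treatment lasted 12 h. Sequencing was done on the BGISEQ-500 platform, with 1 library for each of the 4 conditions. No condition has a replicate, so the variation between cultures was not measured, and every difference given here is one between libraries. The series addressed how both drugs act together, and the comparisons below ask which of the 9 genes differed with each drug and with the combination.

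Cells keep their proteins and lipids reduced through a pair of linked systems that both draw on NADPH. Glutathione is made from cysteine and glutamate by glutamate-cysteine ligase and then glutathione synthetase, and its oxidized form is recycled by glutathione reductase. Thioredoxin passes electrons from thioredoxin reductase to peroxiredoxins and other disulfide proteins. Many of these genes are targets of the transcription factor NRF2, which binds antioxidant response elements once its repressor KEAP1 no longer marks it for degradation.

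Antioxidant response elements share the core TGACNNNGC, so the promoters of the genes were searched for it on both strands, in RefSeq windows from 250 bases before to 50 bases after each annotated start (GRCh38.p14). Windows for 7 of the 9 genes were searched, 8 windows in all, because TXNRD1 has a pair of annotated starts. Those of PRDX1 and GSR were not analysed here. The core was present in the windows of 2 of the 7 genes, GCLM and TXNRD1, and in 13.3% of all 35116 promoter windows, which is a share of windows and not of genes. The matches are shown with the bases around them, since GCLM and TXNRD1 were both among the genes that rose with NBT. Capitals mark the match, in the direction of transcription, and GCTTAGTCA and GCTTTGTCA are the core read from the opposite strand.
GCLM, chr1:93909445-93909474, minus strand: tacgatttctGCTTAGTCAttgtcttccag
TXNRD1, upstream start, chr12:104215670-104215699, plus strand: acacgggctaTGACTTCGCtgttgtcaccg
TXNRD1, downstream start, chr12:104286920-104286949, plus strand: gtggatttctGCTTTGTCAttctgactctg
The GCLM match lies 34 to 26 bases before the annotated RefSeq start, and it reaches the GENCODE start of the gene at position 93909456. In TXNRD1 the matches lie 99 to 91 bases before the upstream start and 102 to 94 bases before the downstream start, and another match in the upstream window, which is not shown, reaches the start itself. The downstream match precedes the RefSeq start of that window and the GENCODE start of NM_001261446.2 at position 104287022. In GENCODE the transcripts that carry most TXNRD1 counts begin before the match, at positions 104286682 and 104286881. It therefore lies within the span of those transcripts. The stretches of GCLM and of the downstream start of TXNRD1 were identical at 20 of 30 positions, against 5 of 30 for GCLM and the upstream start of TXNRD1. The first pair holds the core in the same direction. The upstream stretch holds it in the other direction and was not turned over, so these values do not compare sequence similarity. The longer sequence TGACTCAGC was in no window of these genes and in 0.561% of all windows. The windows of GCLC, TXN, SRXN1, NQO1 and OSGIN1 did not hold the core, which says only that these letters are not in those bases.

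The deposited table gives for each gene an estimated read count and a TPM value (a level scaled to transcript length and library sum). The counts of a library summed to between 18776212 and 19614763, so that 3 counts correspond to 0.153 to 0.160 CPM (counts scaled to a fixed library sum). For 53.9% of all genes an estimated count was fractional, among them GCLM, GSR, PRDX1 and NQO1. Reads that match several genes are divided between them, so the counts of these genes may include reads shared with other genes. The trametinib labels were checked against 10 genes induced by MAPK signalling, and all 10 were lower in both libraries that received the drug, with median log2 ratios to control of -3.27 and -2.77. As background, MIA PaCa-2 is usually described as low in E-cadherin, rich in vimentin and lacking CDKN2A. Here CDH1, which encodes E-cadherin, was at 51.2 to 86.9 TPM, VIM at 11.5 to 26.4 TPM and CDKN2A at 249 to 342 TPM. The epithelial keratin genes KRT8 and KRT18 were at 1493 to 3799 TPM and 995 to 3142 TPM, lowest in the combination and highest in the control. These levels go against that description, and the line is named here only as the sample titles give it, since the cell line entries of the labels carry a different number for each library. CDKN2A was looked up after other values had been seen. Of the other epithelial markers looked up, EPCAM was at 209 to 242 TPM and KRT19 was not in the expression table. Markers of leukocytes (PTPRC), endothelium (PECAM1), fibroblasts (COL1A1) and hepatocytes (ALB) were at no more than 1.69 TPM in any library.

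The combination gave the highest level of 7 of the 9 genes, and 5 of them rose past the limits used for a call: GCLC 7.49-fold, GCLM 5.71-fold, OSGIN1 5.00-fold, TXNRD1 3.96-fold and SRXN1 3.80-fold over control. A gene was called when the counts of a pair of libraries differed at an adjusted value of 0.05 (exact binomial test, two-sided, Benjamini-Hochberg over every gene that had a count in the pair) and the log2 ratio passed 1 in either direction. In the combination 4.73% of 16229 genes tested were called higher and 3.69% lower, against 5 of the 9 genes higher and 0 lower. Since the 9 genes were chosen with earlier results of these data known, this describes them and is no test of the group. The other 4 genes, GSR, NQO1, PRDX1 and TXN, had log2 ratios between 0.15 and 0.82. The median over the 9 genes was 1.93, and that over all genes tested was 0.05. Log2 ratios were computed after scaling to library sums and adding 0.5 reads. The 95% intervals of the log2 ratios below (Clopper-Pearson) cover counting error only, since no condition has a replicate. Reads copied by PCR are not independent molecules, so even for counting error the intervals may be too narrow. The test likewise compares libraries and not conditions. When a coefficient of variation of 0.2 between cultures was assumed, the same 5 genes passed, and with one of 0.4 none did.

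**Figure D1:**
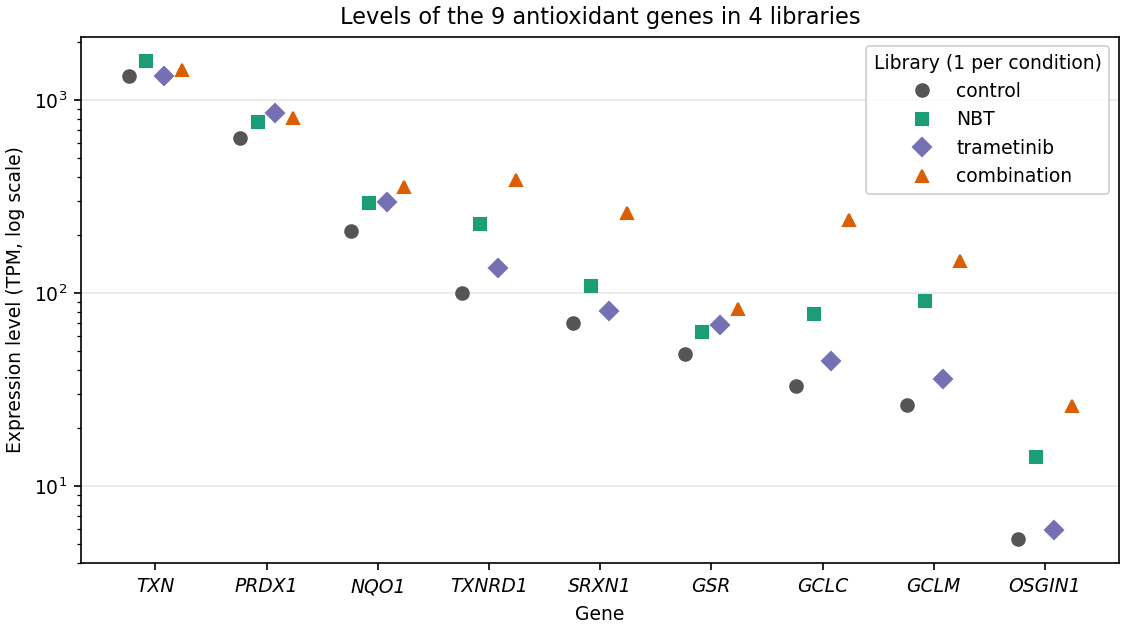
Level of each of the 9 genes in the control, NBT, trametinib and combination libraries, in TPM on a log scale, with 1 point per library and genes in the order of their control level. The combination points of TXNRD1, SRXN1, GCLC, GCLM and OSGIN1 stand clear of the other 3 libraries, whereas those of TXN and PRDX1 lie among them.

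Levels of the genes spanned a wide range. In the control, TXN had the highest level at 1330 TPM, followed by PRDX1 at 638 TPM, NQO1 at 209 TPM, TXNRD1 at 100.2 TPM, SRXN1 at 69.9 TPM, GSR at 48.2 TPM, GCLC at 32.9 TPM, GCLM at 26.4 TPM and OSGIN1 at 5.31 TPM. TXN and PRDX1 kept the first and second place and OSGIN1 the last in all 4 libraries. GCLC and GCLM were below GSR in the control and trametinib libraries and above it in the NBT and combination libraries, and TXNRD1 was above NQO1 in the combination library alone. Together the 9 genes summed to 2460 TPM in the control, 3251 TPM with NBT, 2859 TPM with trametinib and 3738 TPM with the combination. As a share of all counts, which gives long transcripts more weight, they took 0.151%, 0.244%, 0.191% and 0.341%, in the same order of libraries.

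GCLC (chromosome 6, 53497341 to 53616970, minus strand, GRCh38) encodes the catalytic subunit of glutamate-cysteine ligase, the rate-limiting enzyme of glutathione synthesis. Its level was 32.9 TPM in the control, 78.0 TPM with NBT, 44.4 TPM with trametinib and 240 TPM with the combination, from 1088, 2791, 1497 and 8518 counts. The combination library was far above the other 3, and trametinib was the nearest to the control. The log2 ratio to control was 1.31 [1.21 to 1.41] with NBT, 0.45 [0.33 to 0.56] with trametinib and 2.91 [2.81 to 2.998] with the combination, which was the largest change among the 9 genes. Among genes with at least 100 counts, the last value stood at percentile 99.7.

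GCLM (chromosome 1, 93885205 to 93909456, minus strand) encodes the modifier subunit of the same ligase, which raises its activity. Its level was 26.4, 91.2, 35.7 and 147 TPM in the control, NBT, trametinib and combination libraries, from 1245, 4658, 1730 and 7423 counts. GCLM showed the largest rise of the 9 genes with NBT alone, with a log2 ratio of 1.85 [1.76 to 1.94], and reached 2.51 [2.43 to 2.60] with the combination. With trametinib the ratio was 0.46 [0.36 to 0.57], short of the limit. The ratio of the GCLC level to the GCLM level was 1.25 in the control, 0.855 after NBT, 1.24 after trametinib and 1.64 after both drugs, so the subunit with the higher level was GCLM in the NBT library and GCLC in the other 3.

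GSR encodes glutathione reductase, which regenerates reduced glutathione with NADPH. It had 48.2 TPM in the control, 62.7 TPM with NBT, 68.0 TPM with trametinib and 82.9 TPM with the combination. The control was lowest and the combination highest, with log2 ratios of 0.45 [0.35 to 0.55], 0.52 [0.42 to 0.62] and 0.82 [0.72 to 0.91], none of which reached the limit.

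TXN (chromosome 9, 110243811 to 110256640, minus strand) encodes cytosolic thioredoxin. Its level was 1330 TPM in the control, 1604 TPM with NBT, 1337 TPM with trametinib and 1432 TPM with the combination. All 4 libraries lay close together, and NBT alone, not the combination, had the highest value. The log2 ratios were 0.34 [0.30 to 0.38], 0.03 [-0.01 to 0.08] and 0.15 [0.10 to 0.19], and the middle one became -0.04 when libraries were scaled by TMM factors. TXN made up 54.1% of the summed level of the 9 genes in the control and 38.3% in the combination.

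TXNRD1 (chromosome 12, 104215779 to 104350305, plus strand) encodes cytosolic thioredoxin reductase, the selenoenzyme that recharges thioredoxin. It had 100.2 TPM in the control, 228 TPM with NBT, 135 TPM with trametinib and 387 TPM with the combination. The order of the libraries was that of GCLC, with log2 ratios of 1.25 [1.19 to 1.30], 0.44 [0.38 to 0.51] and 1.99 [1.93 to 2.04]. The level of the carrier TXN was 13.3 times that of its reductase TXNRD1 in the control, 7.04 times with NBT, 9.89 times with trametinib and 3.70 times when both were given. Relative to the glutathione branch, the level of TXNRD1 was 2.08 times that of GSR in the control, 3.63 times with NBT, 1.99 times with trametinib and 4.67 times with the combination.

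PRDX1 (chromosome 1, 45511036 to 45523047, minus strand) encodes a peroxiredoxin, which reduces hydrogen peroxide with electrons from thioredoxin. Its level was 638 TPM in the control, 771 TPM with NBT, 854 TPM with trametinib and 809 TPM with the combination. The 3 treated libraries were above the control by log2 ratios of 0.34 [0.29 to 0.39], 0.44 [0.39 to 0.49] and 0.38 [0.33 to 0.43], which was short of the limit. PRDX1 was the only one of the 9 genes with its highest level in the trametinib library. Exons of PRDX1 overlap MMACHC on the opposite strand, which had at most 623 counts in any library, and the strand setting of the counting is not given in the sources used here.

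SRXN1 (chromosome 20, 646615 to 653370, minus strand) encodes sulfiredoxin, which repairs peroxiredoxins that have been overoxidized. Its level was 69.9 TPM in the control, 109 TPM with NBT, 80.5 TPM with trametinib and 259 TPM with the combination. SRXN1 passed the limit in the combination, at 1.93 [1.85 to 2.01], and with neither single drug, at 0.71 [0.62 to 0.80] with NBT and 0.23 [0.13 to 0.32] with trametinib. The level of PRDX1 was 9.13 times that of SRXN1 in the control, 7.05 times with NBT, 10.6 times with trametinib and 3.12 times with the combination.

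NQO1 (chromosome 16, 69706996 to 69726951, minus strand) encodes a quinone reductase that is widely used as a marker of NRF2 activity. It had 209 TPM in the control, 293 TPM with NBT, 298 TPM with trametinib and 356 TPM with the combination. NQO1 was higher than control in every treated library, but by less than the limit, with log2 ratios of 0.56 [0.50 to 0.61], 0.54 [0.49 to 0.59] and 0.81 [0.76 to 0.86].

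OSGIN1 (chromosome 16, 83948282 to 83966332, plus strand) encodes a growth inhibitor induced by oxidative stress. It was the least abundant of the 9 genes, with 5.31 TPM in the control, 14.0 TPM with NBT, 5.93 TPM with trametinib and 26.0 TPM with the combination, from 96, 275, 110 and 503 counts. OSGIN1 rose with NBT, at a log2 ratio of 1.46 [1.13 to 1.82], and with the combination, at 2.32 [2.01 to 2.66]. With trametinib the ratio was 0.18 [-0.23 to 0.59], so that no difference was detectable at this depth.

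**Figure D2:**
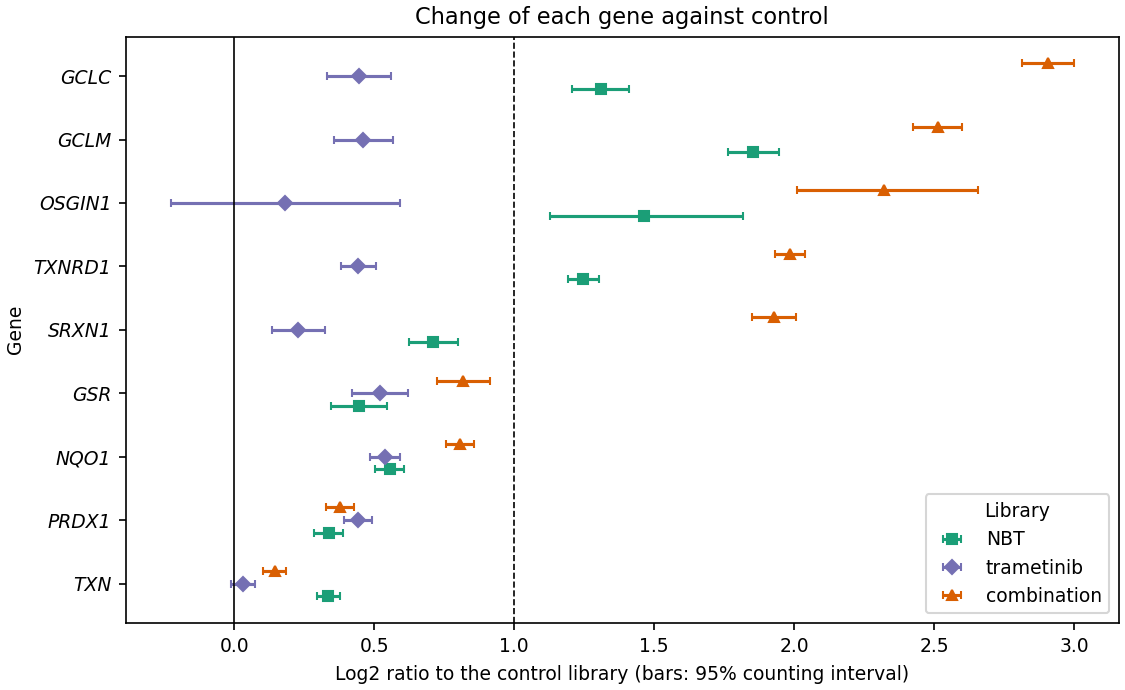
Log2 ratio of each gene to the control library on the horizontal axis, with 1 point for each of the NBT, trametinib and combination libraries and bars for the 95% counting interval. The dashed line marks the limit of 1: all 9 trametinib points lie below it, 4 NBT points and 5 combination points lie above it.

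With NBT alone, 4 of the 9 genes were called higher, GCLM, OSGIN1, GCLC and TXNRD1, and 0 lower. Over all 15888 genes tested, 1.6% were called higher and 1.01% lower. The median log2 ratio of the 9 genes was 0.71, that of all genes tested was -0.01, and every interval of the 9 genes lay above 0. Under a negative binomial test in which cultures vary by 0.2 (coefficient of variation), GCLM was the only one of the 4 that still passed. Of the 4 genes, GCLM and TXNRD1 held the core TGACNNNGC in their promoter windows, at the stretches printed above, and GCLC and OSGIN1 did not. The TXNRD1 transcripts that begin shortly after a match, NM_001093771.3 and NM_001261446.2, had 0 estimated counts in the control and NBT libraries. The rise of TXNRD1 with NBT was thus assigned to transcripts that begin elsewhere. The core was in 13.3% of all promoter windows, and TXNRD1 was searched in a pair of windows, so this is a description only.

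With trametinib alone, none of the 9 genes was called in either direction, while 3.82% of 16197 genes tested were called higher and 2.15% lower. At the 1.5-fold limit the count was also 0, while 1244 genes were called higher and 730 lower. The intervals of 7 of the 9 genes lay above 0, TXN and OSGIN1 being the exceptions, with log2 ratios of up to 0.54 for NQO1. The median was 0.44 for the 9 genes and 0.08 for all genes tested.

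The control library enters each of these comparisons, so that chance deviations of the control move all 3 ratios of a gene together. The combination was therefore also set against each single drug, without the control. The same combination library enters these comparisons and the one with the control, so they are not independent of each other. Against trametinib, the same 5 genes were called higher as against control, and 0 were called lower, where 2.56% of 16343 genes tested were called higher and 3.55% lower. The log2 ratios were 2.46 [2.38 to 2.54] for GCLC, 2.14 [1.84 to 2.45] for OSGIN1, 2.05 [1.98 to 2.13] for GCLM, 1.70 [1.63 to 1.77] for SRXN1 and 1.54 [1.495 to 1.59] for TXNRD1. PRDX1 was slightly below its trametinib level, at -0.06 [-0.11 to -0.02].

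Against NBT, GCLC at 1.60 [1.53 to 1.66] and SRXN1 at 1.22 [1.15 to 1.28] were called higher, which is 2 of the 9 genes, and 0 were lower. Among 16250 genes tested, 2.38% were called higher and 1.99% lower. OSGIN1 at 0.86 [0.64 to 1.08], TXNRD1 at 0.74 [0.70 to 0.78] and GCLM at 0.66 [0.61 to 0.71] were above their NBT level by less than the limit, and they passed it when it was set at 1.5-fold. TXN was below its NBT level, at -0.19 [-0.23 to -0.15], and PRDX1 was at 0.04 [-0.01 to 0.09]. Of this pair, GCLC passed and SRXN1 did not when a variation of 0.2 was assumed.

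The combination was next compared with the sum of the log2 ratios of both single drugs, which is the value expected if the drugs multiply each other's folds. The 95% intervals of the departures are normal approximations from the counts of the 4 libraries and cover counting error only. GCLC exceeded that sum by 1.15 [1.02 to 1.28] and SRXN1 by 0.99 [0.87 to 1.10]. OSGIN1 exceeded it by 0.67 [0.23 to 1.12], TXNRD1 by 0.29 [0.22 to 0.37] and GCLM by 0.20 [0.08 to 0.32]. The other 4 genes were below the sum, with departures of -0.15 [-0.28 to -0.02] for GSR, -0.22 [-0.28 to -0.17] for TXN, -0.29 [-0.36 to -0.22] for NQO1 and -0.40 [-0.47 to -0.33] for PRDX1. Among 11367 genes with at least 50 counts in some library, the median departure was -0.03, the range from percentile 5 to percentile 95 was -0.61 to 0.47, and 0.897% exceeded the sum by at least 1. With library-sum scaling GCLC was the 1 gene of the 9 past that mark, and under each of the 3 other scalings SRXN1 passed it as well, at 1.03 with TMM factors, 1.03 with median-of-ratios factors and 1.04 with TPM values. The 2 subunits of glutamate-cysteine ligase thus differed in how the combination related to the single drugs, with a departure of GCLM that was a small part of that of GCLC.

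**Figure D3:**
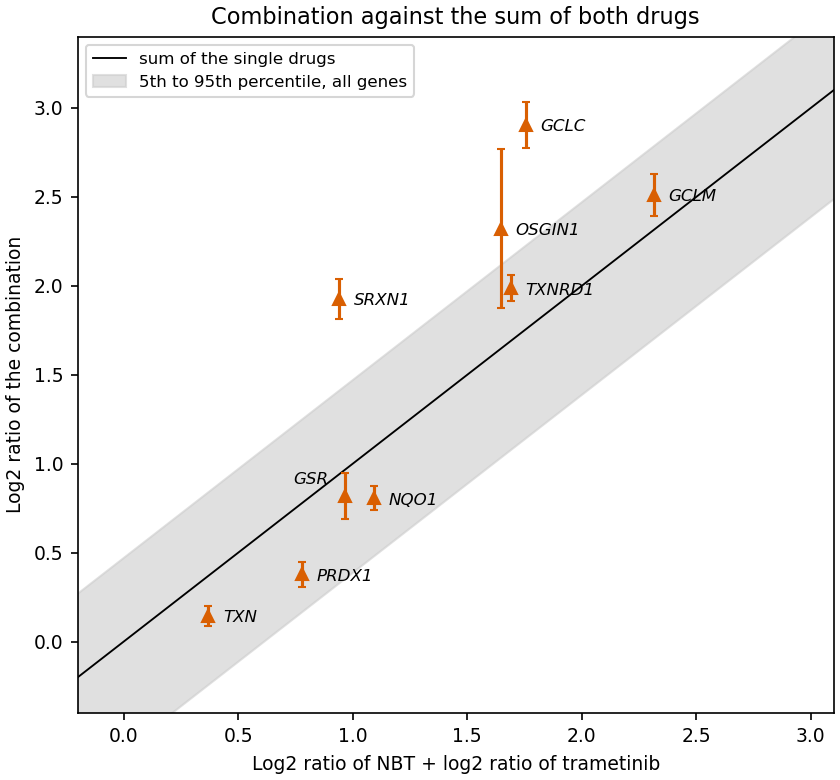
Log2 ratio of the combination to control (vertical axis) against the sum of the log2 ratios of NBT and trametinib (horizontal axis) for the 9 genes, with 95% counting intervals of the departure as bars. GCLC, SRXN1 and OSGIN1 lie above the grey band that spans percentiles 5 to 95 of all genes, while GSR, NQO1, PRDX1 and TXN lie under the line of equal values.

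The transcript table gave further detail, as estimated shares of each gene's TPM that carry no interval. TXNRD1 has 7 listed transcripts, of which NM_182729.3 held 59.0% in the control, 57.1% after NBT, 65.5% after trametinib and 60.0% after both drugs. NM_003330.4 held 18.5%, 22.8%, 11.6% and 21.2% in the same order. NM_182742.3 held 14.7% in the control and less in each treated library, at 4.06%, 6.80% and 6.44%. NM_182743.3 held 7.85% in the control and more in each treated library, at 15.1%, 13.7% and 9.86%. The transcript NM_001093771.3, which begins at the upstream start at position 104215779, was listed at 0 in 3 libraries and at 39.65 estimated counts in the combination. Nearly all TXNRD1 counts in every library were therefore assigned to transcripts that begin downstream, between positions 104286682 and 104287022 in the annotation.

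GCLM was mainly NM_002061.4, with 83.2%, 89.0%, 84.1% and 88.5% of its level in the control, NBT, trametinib and combination libraries. GCLC was split between a curated and a predicted transcript, NM_001498.4 with 40.9%, 39.8%, 36.4% and 41.1%, and XM_017010749.1 with 58.0%, 60.2%, 63.6% and 58.9%. Both were higher in the combination than in the control, by log2 ratios of 2.91 and 2.93, which were not tested. NQO1 had 87.6% to 89.5% of its level in NM_000903.3 and GSR 91.7% to 98.3% in NM_000637.5. PRDX1 and TXN each came almost wholly from 1 transcript, and SRXN1 and OSGIN1 have a single listed transcript.

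**Figure D4:**
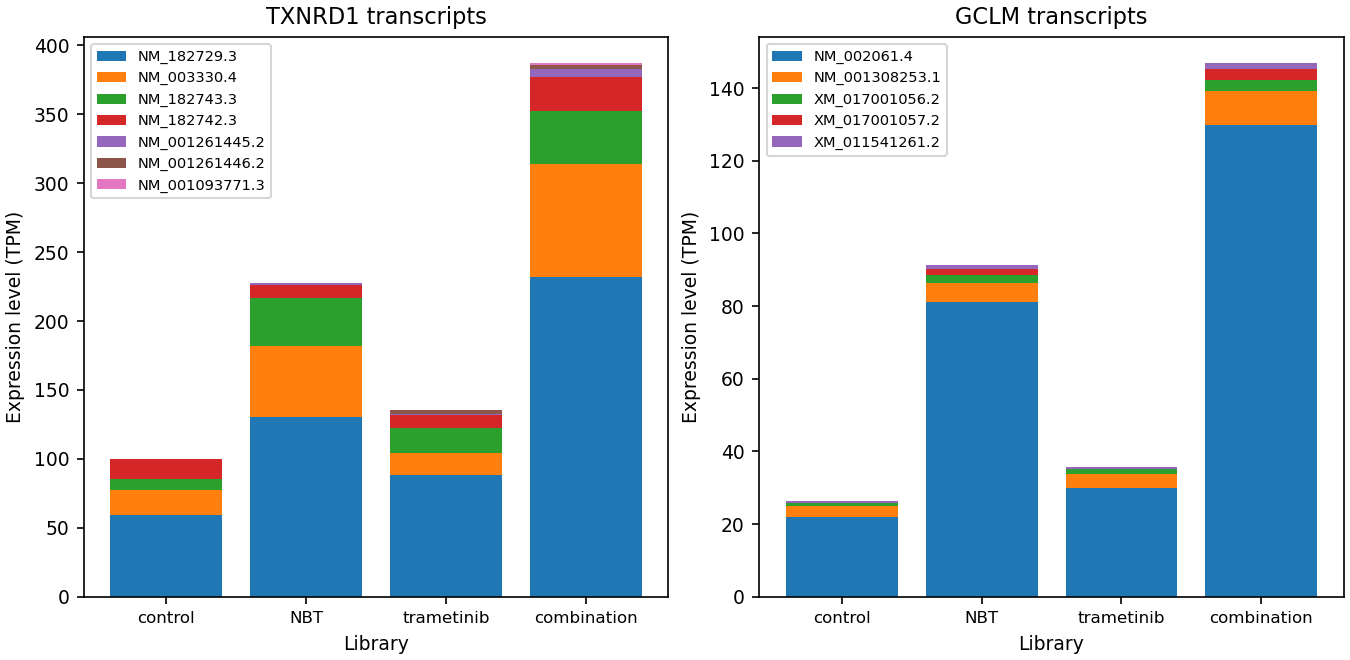
Stacked TPM of the listed transcripts of TXNRD1 (left) and GCLM (right) in each library, with 1 colour per transcript. NM_182729.3 makes up 57.1% to 65.5% of TXNRD1 and NM_002061.4 83.2% to 89.0% of GCLM, so each is the largest part of its bars in every library. The shares of smaller TXNRD1 transcripts differ between libraries, with NM_182742.3 at 14.7% in the control and 4.06% with NBT.

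The remaining genes of the same pathways were taken from 5 lists, which were also chosen with earlier results of these data known. Of 10 other genes for the synthesis, export and breakdown of glutathione, 3 were called higher with the combination, 2 with NBT and 1 with trametinib, and 0 were lower, beside 4.73%, 1.6% and 3.82% of all genes called higher. SLC7A11, the cystine importer that supplies cysteine for glutathione, had 279, 2491, 739 and 5136 counts in the control, NBT, trametinib and combination libraries and log2 ratios of 3.11, 1.39 and 4.14. CHAC1, which degrades glutathione, had log2 ratios of 2.35, 0.99 and 2.66. OPLAH, with at most 62 counts, was the third. GSS, glutathione synthetase, which acts directly after the ligase, was at 0.45, 0.03 and 0.55, and the exporter ABCC1 was at -0.22, -0.71 and -0.39, both short of the limit. The median of the list in the combination was 0.77 over 10 genes, but -0.08 over the 7 with at least 100 counts in some library.

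Of 22 glutathione peroxidases, transferases, glutaredoxins and glyoxalases, 1 was called higher with the combination (GPX2, with 24 counts), 1 with trametinib (GSTA4, with 8 counts) and none with NBT. A share of 1 in 22 is near the 4.73% and 3.82% of all genes called higher in those comparisons, and so is no result about the list. The abundant members of that list stayed near control in the combination, with log2 ratios of 0.30 for GSTP1, -0.20 for GPX1 and 0.04 for GPX4. HAGH at 0.80, GLRX3 at 0.48, GLRX5 at -0.47 and GSTZ1 at 0.41 had the largest values among members with at least 100 counts. Of 16 further thioredoxin, peroxiredoxin and methionine sulfoxide reductase genes, none was called higher with any treatment. NXN, which encodes nucleoredoxin, was called lower with the combination at -1.10. Over all genes, 3.69% were called lower with the combination, and 1.6% to 4.73% were called higher with a treatment. Counts this small in 16 genes are near those shares and are no result about the list. TXNRD2, the mitochondrial relative of TXNRD1, was at -0.65 in the combination, where TXNRD1 rose. MSRB1 at 0.82 and TXNL1 at 0.70 were the highest of that list among members with at least 100 counts. The superoxide dismutase genes SOD1 and SOD2 and the catalase gene CAT were at 0.73, 0.20 and 0.34 in the combination. None of them was called with any treatment, which is no result about a list this short.

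Of 24 other NRF2 target genes, 12 were called higher with the combination, 6 with NBT and 6 with trametinib, and ABCC3 was called lower with trametinib. Over all genes tested, the shares called higher were 4.73%, 1.6% and 3.82% in that order, and 2.15% were called lower with trametinib. The median log2 ratios of the 24 genes were 1.09, 0.58 and 0.29 in the combination, NBT and trametinib libraries. HMOX1, heme oxygenase 1, had 121, 4825, 382 and 44631 counts in the control, NBT, trametinib and combination libraries, and its log2 ratio of 8.46 in the combination exceeded that of every one of the 9 genes. The genes of the ferritin light and heavy chains and the autophagy receptor gene followed, with 2.80 for FTL, 2.54 for FTH1 and 2.49 for SQSTM1. AKR1C1, AKR1C2 and AKR1C3 are closely related genes with at most 16 counts each, and their counts are uncertain. AKR1C1, with 16 counts in the combination, is among the 12 genes called higher there.

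**Figure D5:**
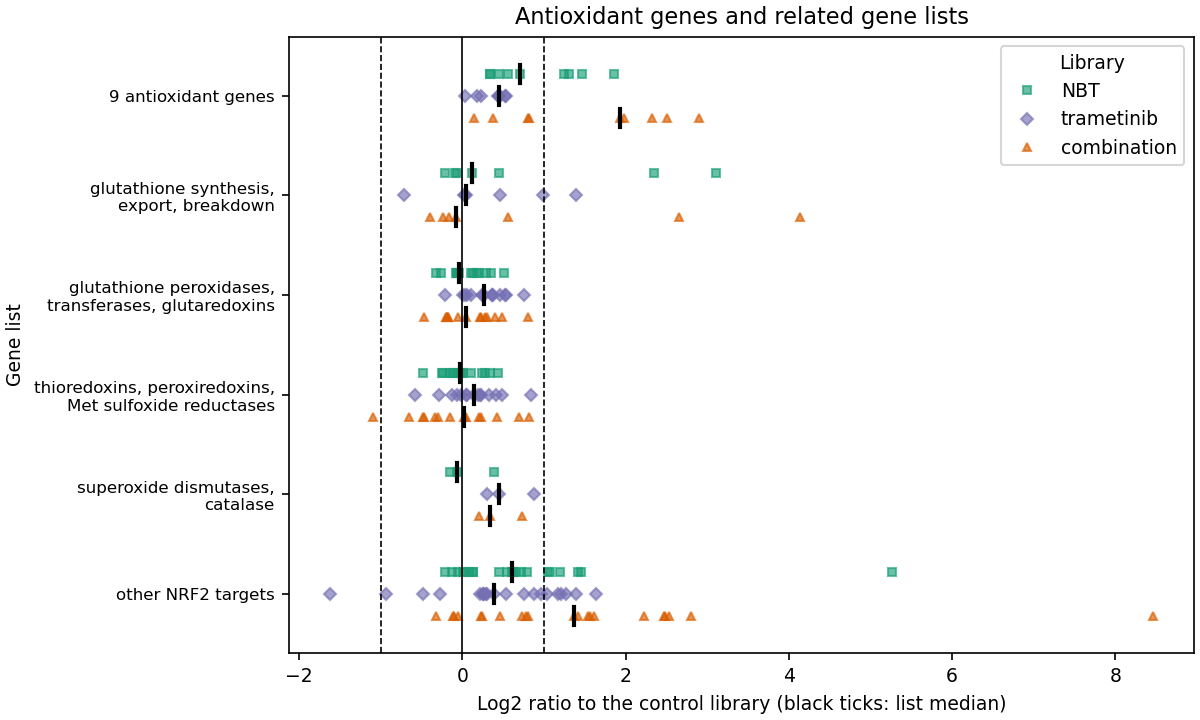
Log2 ratio to control of the 9 antioxidant genes and of the members of the 5 related lists with at least 100 counts in some library, 1 point per gene and library, with a black tick at the median of the points and dashed lines at -1 and 1. In the combination, 5 of the 9 genes lie past 1, and the other NRF2 targets shown have a median of 1.37. All members of the peroxidase list and of the superoxide dismutase list shown lie within the dashed lines in that library.

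The genes whose 3 log2 ratios lay nearest to the median profile of the 9 genes (0.71 for NBT, 0.44 for trametinib and 1.93 for both drugs) were sought among 9978 genes with at least 100 counts in every library. The nearest was HSPA1B, at 0.69, 0.26 and 1.86 and a Euclidean distance of 0.195. NQO2, a paralog of NQO1, followed at 0.77, 0.67 and 1.89 and a distance of 0.235, so that it was further from control in the combination than NQO1 itself. MAGEA2, HSPA1A and THBS3 came next, at distances of 0.253, 0.363 and 0.369. HSPA1A and HSPA1B are near-identical copies, and MAGEA2 has one as well, so that reads may have been divided between copies and their single counts are uncertain.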

How the data were processed

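RNA of 4 conditions, 1 library each, was sequenced on the BGISEQ-500 platform. The submitters' processing notes name Bowtie2 2.2.5, RSEM 1.2.8 and hg38. The authors deposited, per gene and per RefSeq transcript, estimated counts that are not normalized, TPM values scaled to length and library sum, and FPKM values scaled to length and mapped fragments. The FPKM values deposited by the authors were not used in any result. Columns were assigned to libraries through the sample titles.

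Estimated counts were rounded, scaled to library sums and compared with an exact binomial test of a pair of libraries, with the limits of the study's methods, and no p-value is given because the test compares libraries. The steps were tested on simulated data with 200 changed genes. Alternatives were edgeR's TMM factors, DESeq2's median-of-ratios factors, deposited TPM values with a pseudocount of 0.1, 5 added reads, summed transcript counts, a minimum of 10 counts, edgeR's negative binomial exact test with assumed coefficients of variation of 0.2 and 0.4, and limits of 1.5-fold and a log2 ratio of 2. Named were all 9 genes, up to 4 genes per list with the largest combination ratio among genes with at least 100 counts, HMOX1, and the 5 genes nearest to the median profile. Other genes of the lists were named after their values were seen. The values of 1 gene of the lists are not reported here. The 9 genes and the lists were chosen with earlier results of these data known. Gene positions are from GENCODE v29 (GRCh38) and promoters from RefSeq. The software was edgeR 4.0.16 and DESeq2 1.42.0 under R 4.3.3, and numpy 2.4.6, scipy 1.17.1, statsmodels 0.14.6, matplotlib 3.10.9 and pandas 2.3.3 under Python 3.11.15.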

Additional observations from a re-analysis of the deposited data

How the results depend on the processing

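With TMM or median-of-ratios factors, TPM ratios, 5 added reads, transcript sums or a minimum of 10 counts, the number of the 9 genes called was the same in all 5 comparisons, and the median over all genes moved by at most 0.07 on the log2 scale. The median of the 9 genes with trametinib moved from 0.44 to 0.37 with TMM factors and to 0.38 with median-of-ratios factors. Calls depended on the variation assumed between cultures. With a coefficient of variation of 0.2, the number of the 9 genes called higher went from 4 to 1 with NBT and from 2 to 1 for the combination against NBT. The number over all genes went from 255 to 51 with NBT and from 386 to 94 for the combination against NBT. The peroxidase list went from 1 to 0 in the combination. With 0.4, the number of the 9 genes was 0 in each comparison, where 3 to 30 of all genes were called higher. In the combination the glutathione synthesis list went from 3 to 1, the peroxidase list from 1 to 0 and the other NRF2 targets from 12 to 1. With a log2 limit of 2, the number of the 9 genes was 0 with NBT, 3 for the combination against control, 3 against trametinib and 0 against NBT. In the same order, 81 of 15888, 248 of 16229, 104 of 16343 and 152 of 16250 genes tested were called higher. At that limit 6 of the other NRF2 targets passed in the combination. With a 1.5-fold limit, 5 of the 9 genes passed for the combination against NBT, 7 against control (GSR and NQO1 were added) and 5 with NBT (SRXN1 was added). Among all genes tested, 838 of 16250, 1696 of 16229 and 616 of 15888 were called higher, in that order. In the combination 2 genes of the peroxidase list, 2 of the thioredoxin list and 1 of the superoxide dismutase list were called higher, against 1, 0 and 0. Beside 1696 of 16229 genes, counts this small are no result about these lists. Over all genes, the numbers called higher and lower in the combination were 768 and 599, against 296 and 251 with a coefficient of 0.2, 30 and 21 with 0.4, 248 and 153 with a log2 limit of 2, and 1696 and 1357 with a 1.5-fold limit. No paired analysis was possible because each condition has 1 library, and for the same reason no library could be left out. The depth limits OSGIN1 most, with 96 counts in the control.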
